A study of Mus musculus with 6 samples.

Results

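Insulin signaling and glucose uptake genes were examined in brown adipose tissue (BAT) of mice without miR-22. The group held 10 genes chosen by name, Insr, Irs1, Irs2, Pik3r1, Pik3ca, Akt1, Akt2, Foxo1, Slc2a4 and Tbc1d4, out of 23462 genes with a probe on the array. Every array probe annotated with a RefSeq transcript of one of them was taken, which gave 17 probes, and 5 of the 10 genes had a single probe. BAT of 3 male wild-type (WT) littermates and 3 male constitutive miR-22 knockout (KO) mice was profiled, all 8 weeks old, on Agilent mouse arrays with 1 dye and 1 mouse per array. The deletion was carried in the whole animal and was not restricted to BAT or to adipocytes. The arrays read RNA from the whole tissue, in which fewer cells of a type and less RNA per cell cannot be told apart.

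Insulin binds its receptor at the cell surface, and the activated receptor phosphorylates docking proteins, the insulin receptor substrates. These recruit phosphoinositide 3-kinase, whose lipid product brings the kinase AKT to the membrane, where AKT is activated. AKT keeps the transcription factor FoxO1 out of the nucleus and switches off TBC1D4, a brake on the movement of GLUT4 vesicles, so that the glucose carrier GLUT4 reaches the cell surface. Brown adipocytes are rich in GLUT4 and take up large amounts of glucose in response to insulin and to cold.

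The mature strands of the deleted microRNA are shown first because the absence of miR-22 is the only designed difference between the groups. The sequences are those of RefSeq on GRCm38.p6, and the capitals mark the seed, bases 2 to 8, with which a microRNA pairs to its targets. The 3p strand lies at chr11:75463772-75463793 and the 5p strand at chr11:75463734-75463755, both on the plus strand. The letters of the seeds differ between the strands.
mmu-miR-22-3p: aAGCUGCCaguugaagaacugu
mmu-miR-22-5p: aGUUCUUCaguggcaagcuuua
Values below are scaled log2 signals, in which 0 is the 75th percentile of the array, and probes were compared only with themselves across mice. The probe of the miR-22 host gene, Mir22hg, read 1.20, 1.69 and 1.22 in WT and 2.02, 2.11 and 2.23 in KO mice. All KO mice were above all WT mice, with a log2 difference of 0.75 ± 0.19 (SE), an unadjusted limma p of 0.005 and an adjusted p of 0.136. This probe reads the host transcript and not the mature microRNA, and whether it lies within the deleted part is not given in the sources used here, so it checks no label.

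In the comparison of KO with WT mice, Irs2 was the only one of the 10 genes to fall at the unadjusted threshold of 0.05 and Pik3r1 the only one to rise. Irs2 was 0.646-fold of WT and Pik3r1 1.73-fold. The other 6 genes with a testable probe did not pass, and Slc2a4 and Pik3ca had too few usable WT spots to enter the main test. A testable probe had at least 3 arrays well above background and at least 2 unmarked spots per group, a marked spot being one that the scanner software called not uniform or an outlier. All 17 probes were well above background on all 6 arrays, 6 of them had a marked spot, and 15 probes of 8 genes were testable. Among all 14711 genes tested, 7.39% were lower and 9.24% were higher in KO at this threshold, so 1 of the 8 testable members in each direction was near the background. After Benjamini-Hochberg adjustment no member passed, the smallest adjusted p in limma being 0.158, while 0.102% of all genes did. At the level of probes 2 of the 15 passed, and 16.4% of all 31238 tested probes did. The median log2 difference was −0.13 over the 8 tested members and −0.03 over all genes. Of the 8 members 5 were below 0, beside 52.9% of all genes.

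**Figure D1:**
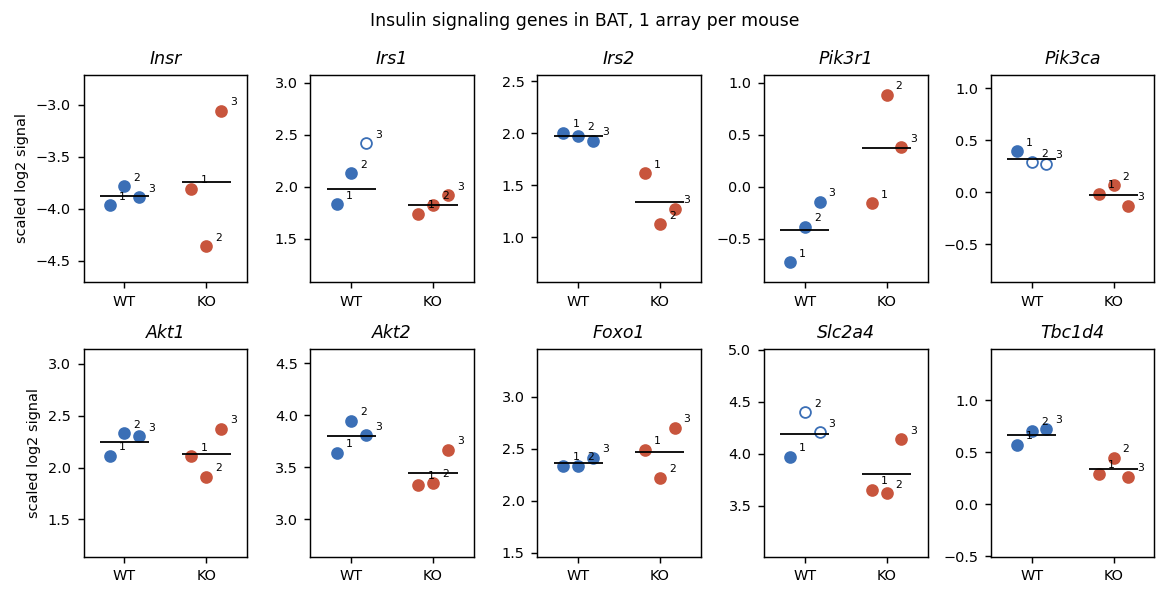
Scaled log2 signal (vertical axis, 0 is the 75th percentile of the array) of each of the 10 genes in each mouse, WT in blue and KO in red, with the number of the mouse beside the point, by the brightest testable probe. Open circles are marked spots and horizontal lines are group means over the unmarked spots, or over all spots for Pik3ca and Slc2a4. The range of each vertical axis spans 2 log2 units. The 3 KO values of Irs2, 1.12 to 1.62, lie below the 3 WT values, 1.93 to 2.01.

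The insulin receptor gene, Insr, which encodes the receptor tyrosine kinase at the head of the pathway, was measured by 2 dim probes. On the brighter one, A_55_P2173927, the WT mice read −3.96, −3.78 and −3.89, and the KO mice read −3.81, −4.36 and −3.05. The KO mice spread on both sides of the WT mice, with an SD of 0.66 against 0.09 in WT. The log2 difference was 0.14 with a 95% confidence interval from −0.61 to 0.88, and the other probe, A_52_P6490, gave 0.19 from −0.28 to 0.66. The direction rested on KO3, without which the difference on the brighter probe was −0.21. It was also below 0 under quantile normalization (−0.06), with normexp background correction (−0.03) and in the values processed by the authors (−0.06).

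The receptor substrates Irs1 and Irs2 are the docking proteins through which the receptor reaches phosphoinositide 3-kinase. Irs2, on its single probe A_66_P102260, read 2.01, 1.98 and 1.93 in WT and 1.62, 1.12 and 1.28 in KO mice. The WT mice were nearly level, at 1.97 ± 0.04 (SD, n = 3), and every KO mouse was lower, at 1.34 ± 0.25 (SD, n = 3). The log2 difference was −0.63 with a 95% confidence interval from −1.04 to −0.22, an unadjusted p of 0.008 and an adjusted p of 0.158 in limma. Irs2 passed the unadjusted threshold under 18 of 19 alternatives, with log2 differences between −0.77 and −0.52 over all of them. The exception was the fit with slide row as a block, where the difference was −0.59 with an unadjusted limma p of 0.073. The alternatives are not independent. With a single probe, no marked spot and a signal above background on all arrays, changes of filter, probe choice and marked spots left the difference of Irs2 at −0.63. All arrays lay on 1 slide, WT1 and WT2 in row 1 and WT3 with the KO mice in row 2. Within row 2, all 3 KO mice were below WT3, with a mean difference of −0.59, while row 1 held only WT mice.

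Irs1, on its single probe A_52_P175242, read 1.83, 2.13 and 2.42 in WT and 1.74, 1.82 and 1.92 in KO mice. The highest value, that of WT3, came from a marked spot and was left out of the fit. The groups overlapped, and the log2 difference was −0.15 with a 95% confidence interval from −0.61 to 0.30. With the marked spot kept it was −0.30, with an unadjusted p of 0.155. The difference between Irs1 and Irs2 was not tested.

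The promoters of both substrates are printed because both matched the same pair of motifs. Each window runs from 250 bases before the annotated start to 50 bases after it, in RefSeq on GRCm38.p6, 5′ to 3′ on the strand of the gene, which is the minus strand for both. Irs1 lies at chr1:82291390-82291689 and Irs2 at chr8:11008880-11009179. The capitals mark the E-box CACGTG, which basic helix-loop-helix factors bind, and TGTTTT, the core of the site that FoxO factors bind. Both strands were searched.
Irs1: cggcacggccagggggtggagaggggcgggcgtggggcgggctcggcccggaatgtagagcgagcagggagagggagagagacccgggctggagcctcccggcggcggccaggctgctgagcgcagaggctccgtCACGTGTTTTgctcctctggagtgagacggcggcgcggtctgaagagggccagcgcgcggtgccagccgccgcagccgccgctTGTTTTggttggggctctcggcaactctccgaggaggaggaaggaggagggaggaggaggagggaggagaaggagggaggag
Irs2: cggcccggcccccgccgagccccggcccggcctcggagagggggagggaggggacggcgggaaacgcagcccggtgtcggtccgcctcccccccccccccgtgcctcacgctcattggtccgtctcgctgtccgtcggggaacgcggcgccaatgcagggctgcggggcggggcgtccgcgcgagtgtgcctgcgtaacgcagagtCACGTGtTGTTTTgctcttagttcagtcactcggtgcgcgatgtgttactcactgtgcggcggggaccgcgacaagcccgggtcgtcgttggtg
In Irs2 the E-box began at base 207 and the FoxO core at base 214, with no shared base. In Irs1 the E-box at base 136 and a FoxO core at base 140 overlapped, and a further FoxO core began at base 219. Of 32851 promoter windows of the same length, 7.15% held CACGTG, 22.1% held TGTTTT and 1.22% held both. Of the 8 members with a window, only Irs1 and Irs2 held both, and Akt1, Akt2 and Tbc1d4 held the FoxO core in at least 1 window. Insr and Slc2a4 had no window in the table used here.

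Phosphoinositide 3-kinase joins a regulatory subunit, p85α from Pik3r1, to a catalytic subunit, p110α from Pik3ca. Pik3r1, on its single probe A_52_P307938, read −0.73, −0.39 and −0.15 in WT and −0.16, 0.88 and 0.38 in KO mice. KO2 and KO3 were above all WT mice, and KO1 was level with WT3, so the groups overlapped. The log2 difference was 0.79 with a 95% confidence interval from 0.10 to 1.48, an unadjusted p of 0.030 and an adjusted p of 0.250 in limma. The call was lost without WT1 (0.63), WT2 (0.81), KO2 (0.53) or KO3 (0.78), in the methods' t-test, with the level of skeletal muscle markers as a covariate, and with slide row as a block (0.52). Within row 2 of the slide, 1 of the 3 KO mice was below WT3.

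Pik3ca, on its single probe A_65_P09318, read 0.39, 0.29 and 0.27 in WT and −0.01, 0.07 and −0.13 in KO mice. Every KO mouse was below every WT mouse, but the spots of WT2 and WT3 were marked, which left 1 usable WT value. With marked spots kept, the log2 difference was −0.35 with a 95% confidence interval from −0.68 to −0.01, an unadjusted p of 0.043 and an adjusted p of 0.272 in limma. In that fit 9.53% of 16110 genes were lower at the unadjusted threshold. The call of Pik3ca was lost under 9 of 15 alternatives, and the values ran from −0.39 to −0.24.

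The kinases Akt1 and Akt2 carry the signal on, AKT2 being the form most closely tied to glucose uptake. Akt2, on its brightest probe A_55_P2066518, read 3.64, 3.95 and 3.81 in WT and 3.33, 3.35 and 3.67 in KO mice. KO1 and KO2 were below all WT mice and KO3 was between WT1 and WT3. The log2 difference was −0.35 with a 95% confidence interval from −0.76 to 0.05, and its unadjusted p was 0.080. Without KO3 the difference was −0.46 and passed the unadjusted threshold, while under quantile normalization and in the values processed by the authors it was −0.11. The other probes of Akt2 gave −0.15 on A_51_P408044, where the spots of WT3 and KO1 were marked, and 0.06 on A_55_P2066523.

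Akt1 had 2 probes that disagreed in sign. The brighter, A_51_P237553, read 2.11, 2.33 and 2.30 in WT and 2.11, 1.91 and 2.37 in KO mice, with overlapping groups and a log2 difference of −0.12 (95% confidence interval −0.53 to 0.30). The dimmer, A_52_P418014, read −2.92, −2.84 and −3.03 in WT and −2.72, −2.50 and −2.54 in KO mice. All KO mice were above all WT mice on the dimmer probe, with a log2 difference of 0.35 and an unadjusted p of 0.055. On the brighter probe the sign turned under quantile normalization (0.02) and in the values processed by the authors (0.03), and the mean of both probes was 0.11.

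**Figure D2:**
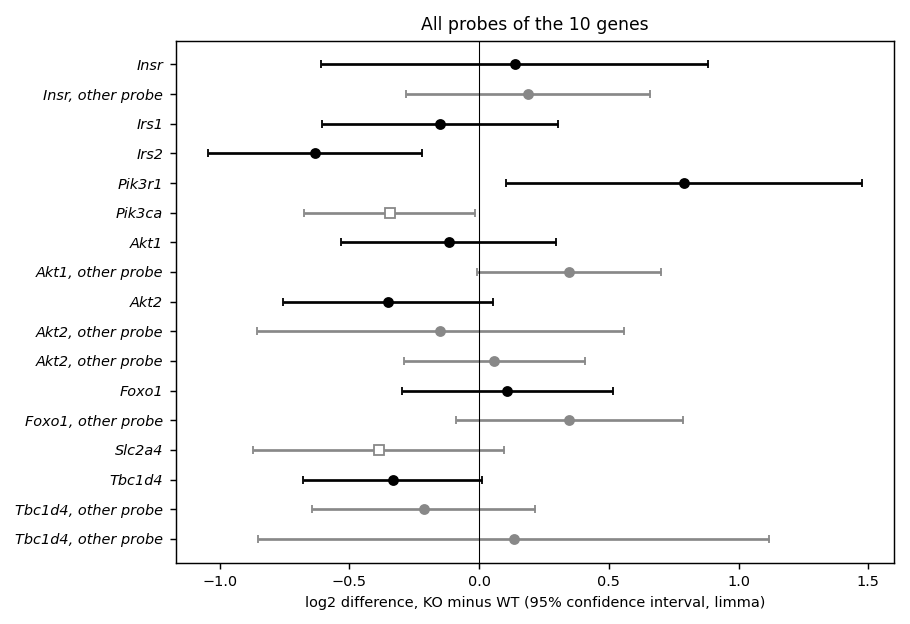
Log2 difference of KO minus WT (horizontal axis) with its 95% confidence interval from limma for each of the 17 probes of the 10 genes. Black circles are the brightest testable probe of each gene, gray circles its other probes, and open squares Pik3ca and Slc2a4 with marked spots kept. Among the circles only the intervals of Irs2 (−1.04 to −0.22) and Pik3r1 (0.10 to 1.48) leave out 0, and that of Pik3ca ends at −0.01.

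FoxO1, the transcription factor that AKT holds in the cytoplasm, was measured by 2 probes. On the brighter one, A_55_P2798990, Foxo1 read 2.33, 2.33 and 2.41 in WT and 2.49, 2.22 and 2.70 in KO mice. The groups overlapped, with a log2 difference of 0.11 (95% confidence interval −0.30 to 0.52) that was −0.01 without KO3. On A_52_P453884 the WT mice read 0.93, 0.90 and 1.06, the last from a marked spot, and the KO mice read 1.29, 1.10 and 1.38. All KO mice were above all WT mice there, with a log2 difference of 0.35 and an unadjusted p of 0.101.

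Slc2a4, which encodes GLUT4, read 3.97, 4.40 and 4.21 in WT and 3.65, 3.62 and 4.14 in KO mice on its single probe A_51_P217498. KO1 and KO2 were below all WT mice and KO3 was among them, and the spots of WT2 and WT3 were marked. With marked spots kept, the log2 difference was −0.39 with a 95% confidence interval from −0.87 to 0.09, an unadjusted p of 0.099 and an adjusted p of 0.367 in limma. It passed the unadjusted threshold with normexp background correction (−0.37) and without KO3 (−0.56), and under quantile normalization it was −0.16.

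Tbc1d4 encodes the Rab GTPase-activating protein that holds GLUT4 vesicles inside the cell until AKT phosphorylates it. On its brightest probe, A_55_P2905445, the WT mice read 0.57, 0.71 and 0.73 and the KO mice 0.29, 0.45 and 0.27. All KO mice were below all WT mice, with a log2 difference of −0.33, a 95% confidence interval from −0.68 to 0.01, an unadjusted p of 0.057 and an adjusted p of 0.318 in limma. It passed the unadjusted threshold in the methods' t-test, with limma's trend and robust options, and with 1 probe per gene in the fit. The other probes gave −0.21 on A_52_P381430 and 0.13 on A_55_P2817204, and the groups overlapped on both.

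Groups without overlap were common in these arrays. Of 11574 genes with 6 unmarked spots, 14.7% had all KO mice below all WT mice and 14.2% had all KO mice above them. On the brightest testable probes, Irs2 and Tbc1d4 were of the first kind and no member was of the second.

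**Figure D3:**
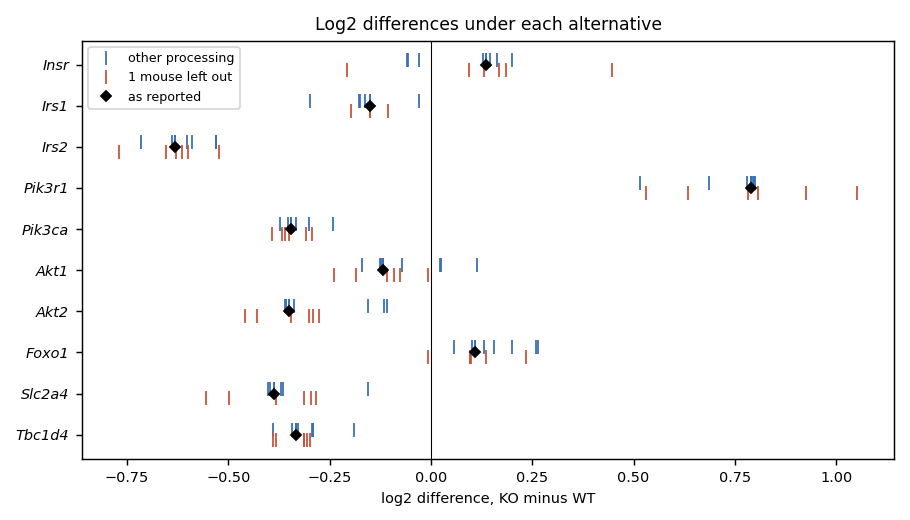
Log2 difference of KO minus WT (horizontal axis) for each of the 10 genes as reported (black diamonds), under other processing (blue bars) and with 1 mouse left out (red bars), with marked spots kept for Pik3ca and Slc2a4. Irs2 stays between −0.77 and −0.52, and the bars of Insr, Akt1 and Foxo1 lie on both sides of 0.

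The other genes of the pathway were read from a list of 149 genes sorted by role, of which 119 were testable. In KO mice 11 of them fell (9.24%) and 9 rose (7.56%) at the unadjusted threshold, against 7.39% and 9.24% of all genes. None passed adjustment, and the smallest adjusted p in limma, 0.119, was that of Stxbp4. Its probe was well above background on only 1 of the 3 WT arrays and met the filter through the KO arrays. The median log2 difference of the 119 genes was −0.12, beside −0.03 over all genes. Of the 119, 73 were below 0, beside 52.9% of all genes. Direction went with the brightness of the probe. The genes that rose had mean scaled log2 signals from −5.17 (Stxbp4) to −0.95 (Dok1). Those that fell had signals from −1.63 (Rab4a) to 3.87 (Eif4ebp1). The part of probe brightness in these directions was not tested. The count of genes that fell was 0 with slide row as a block, where 266 of all 13092 genes did. It was 18 of 145 with marked spots kept, where 9.53% of all genes fell. It was 6 without WT1, 2 without WT2, 4 without WT3, 4 without KO1 and 6 without KO2, and the count of genes that rose was 4 without WT1 and 5 without WT2.

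**Figure D4:**
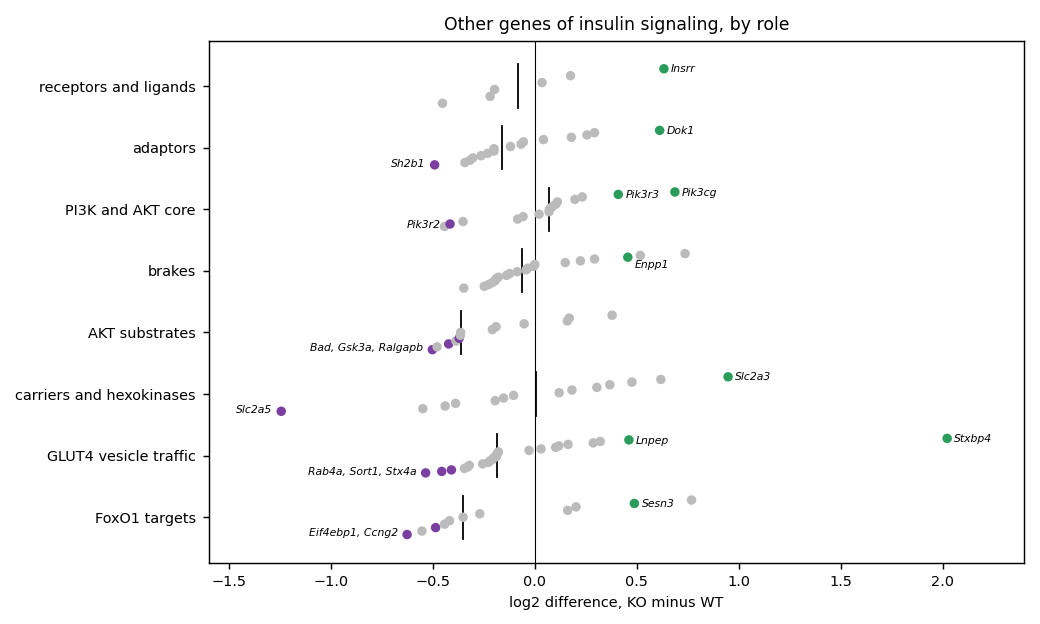
Log2 difference of KO minus WT (horizontal axis) of the 119 testable pathway genes, 1 point per gene, in rows by role with vertical bars at the row medians. Points in purple fell and points in green rose at an unadjusted p under 0.05, with their names, and gray points did not pass. The AKT substrates hold 3 purple points and no green one, with a median of −0.36.

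Of the substrates of AKT, 3 of 13 testable genes fell and none rose, beside 7.39% and 9.24% of all genes, and their median was −0.36. With marked spots kept 6 of 15 fell, beside 9.53% of all genes in that fit, and with slide row as a block none of the pathway genes did. Bad, a promoter of cell death that AKT restrains, read 2.08, 2.50 and 2.27 in WT and 1.74, 1.70 and 1.90 in KO mice. Gsk3a, a kinase that inhibits glycogen synthesis, had a log2 difference of −0.42 ± 0.18 (SE), and a dimmer probe gave −0.29 (unadjusted limma p 0.130). Ralgapb, a subunit of the complex that restrains Ral GTPases, had a log2 difference of −0.37 ± 0.16. Its dimmer probes gave −0.89 (unadjusted limma p 0.016) and −0.35 (unadjusted limma p 0.286). The log2 difference of Bad was −0.50 ± 0.17. On the brightest probes of all 3 genes every KO mouse was below every WT mouse, as in 14.7% of genes with 6 unmarked spots. The 3 genes were named by their p, so the lack of overlap adds no separate support. The calls of Gsk3a and Ralgapb were each lost under 12 of 19 alternatives and that of Bad under 5, and under quantile normalization Gsk3a differed by −0.22.

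In the traffic of GLUT4 vesicles 3 of 24 testable genes fell (12.5%) and 2 rose (8.33%), near the 7.39% and 9.24% of all genes. Rab4a, a GTPase of endosomal recycling, read −1.56, −1.13 and −1.40 in WT and −1.90, −1.94 and −1.85 in KO mice, a log2 difference of −0.54, while a dimmer probe gave 0.86 with an SE of 1.20. Stx4a, the membrane syntaxin at which the vesicles fuse, differed by −0.41, a call lost under 9 of 19 alternatives. A further probe of Stx4a differed by −0.42 with an SE of 0.29 and did not pass (unadjusted limma p 0.214). Sort1, the sorting receptor sortilin, differed by −0.46 with the spot of WT3 marked, while its other probes differed by −0.18 and 0.03, and Sort1 did not pass under 11 of 19 alternatives. Lnpep, the aminopeptidase that travels in the same vesicles, rose by 0.46, a call lost under 9 of 19 alternatives. Stxbp4, a partner of syntaxin 4, rose by 2.02 on its brighter probe. This probe was well above background on only 1 of the 3 WT arrays and on all 3 KO arrays. It thus entered the test, and the count of genes that rose, through the KO arrays. The other probe of Stxbp4 gave 0.53 with an unadjusted limma p of 0.202. Without WT1 the other probe was the brighter one and gave 0.11, and with normexp background correction the gene differed by 0.60.

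Among carriers and hexokinases 1 of 14 testable genes fell and 1 rose (7.14% each), near the 7.39% and 9.24% of all genes. Slc2a3, the carrier GLUT3 of neurons and blood cells, read −4.12, −5.02 and −4.16 in WT and −3.32, −3.34 and −3.80 in KO mice, and rose by 0.95, or by 0.48 with normexp background correction, where it did not pass. Slc2a5, a fructose carrier, read 0.43, 2.14 and 1.34 in WT and −0.06, 0.48 and −0.24 in KO mice. The log2 difference of Slc2a5 was −1.24 ± 0.43 (SE), and KO2 was slightly above WT1. Without WT2 it was −0.82 and did not pass.

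Receptors and ligands (6 testable genes), adaptors (16), the kinase core (15) and brakes on the signal (20) held few calls. In these roles 0 to 6.67% fell and 5 to 16.7% rose, beside 7.39% and 9.24% of all genes. Insrr, a receptor related to the insulin receptor, rose by 0.63 on a dim probe, and the call was lost under 12 of 19 alternatives, with values of 0.09 with slide row as a block, 0.14 with normexp and 0.42 without WT1. Igf2, a growth factor ligand, differed by −0.45 with the spot of WT3 marked and an unadjusted p of 0.081. Without WT1 or WT2 that probe was not testable, and a dim probe gave −0.12 and 0.11. Dok1, an adaptor that dampens kinase signaling, read −1.28, −1.21 and −1.27 in WT and −0.77, −0.69 and −0.47 in KO mice. It rose by 0.61 and passed under all 19 alternatives, though some of them could not move the difference of its single unmarked probe. Sh2b1, an adaptor that enhances receptor signaling, fell by 0.49 on the log2 scale, a call lost under 11 of 19 alternatives, and without KO2 it differed by −0.31. In the core, Pik3r2, the regulatory subunit p85β, fell by 0.42 on the log2 scale. Pik3cg, the catalytic subunit of leukocytes, rose by 0.69 on a dim probe, and its groups overlapped. It read −5.10, −5.22 and −4.54 in WT and −4.21, −3.96 and −4.63 in KO mice. Pik3r3, a regulatory subunit, rose by 0.41. The call of Pik3r2 was lost under 6 of 19 alternatives, that of Pik3cg under 8, with 0.27 with slide row as a block, and that of Pik3r3 under 10. Of the brakes, Enpp1, an inhibitor of the receptor, rose by 0.46 on its brighter probe (unadjusted limma p 0.040). A dimmer probe differed by −0.69 (unadjusted limma p 0.025), so both probes passed in opposite directions. Enpp1 did not pass under 10 of 19 alternatives. Pik3ip1, which binds and inhibits the kinase, was higher in every KO mouse, by 0.74, with an unadjusted p of 0.056. Without KO2 the difference was 0.39, and without KO1 it was 1.05 and passed.

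Genes that FoxO1 is known to activate had 2 that fell and 1 that rose among 11 testable of 23 listed, beside 7.39% and 9.24% of all genes. With marked spots kept, 5 fell and 2 rose among 22. In that fit 9.53% of all 16110 genes fell and 1409 of them rose. Eif4ebp1, an inhibitor of translation, differed by −0.63 with the spot of KO1 marked, and Ccng2, an inhibitor of cell cycle progress, by −0.49, a call lost under 11 of 19 alternatives and with a value of −0.32 without KO2. Sesn3, a sestrin, rose by 0.49, with the WT mice at −2.16, −2.03 and −1.88 and the KO mice at −1.50, −1.56 and −1.55. The median of the 11 genes was −0.35.

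The cell types that share these genes were read from marker lists, each as the mean scaled log2 signal over its genes with marked spots kept. The 14 brown adipocyte markers averaged 2.86, 3.12 and 2.91 in WT and 2.70, 2.49 and 2.95 in KO mice. Their mean difference was −0.24 (two-sided exact permutation p = 0.3), and all 14 were above background on every array. Skeletal muscle, which also uses most of the 10 genes, varied most, at 2.19, 1.35 and −4.63 in WT and −0.16, 3.26 and 1.25 in KO mice, for 20 markers of which 12 were above background on all 6 arrays and none was below it on all. WT3 stood far below the other mice and KO2 highest. The two-sided exact permutation test over the 6 mice gave p = 0.7 for the muscle list, the smallest p it allows being 0.1. With the muscle level as a covariate the log2 difference of Irs2 was −0.60 and that of Slc2a4 −0.36, and without WT3 they were −0.65 and −0.38. White adipocyte markers averaged −2.50, −2.46 and −2.48 in WT and −2.14, −1.77 and −1.72 in KO mice (exact permutation p = 0.1). Of these 13 markers, 12 were above background on all arrays and 1 was below it on all. The list was dim, and the part of probe brightness in its difference was not tested. Macrophage markers averaged 1.05, 1.02 and 1.21 in WT and 1.23, 1.55 and 1.32 in KO mice. They were also higher in every KO mouse, by 0.27 on average, though KO1 was barely above WT3 (12 markers, all above background on all arrays, exact permutation p = 0.1). The part of the white adipocyte or macrophage markers in the values of Irs2, Pik3r1, Pik3cg and Slc2a3 was not tested.

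**Figure D5:**
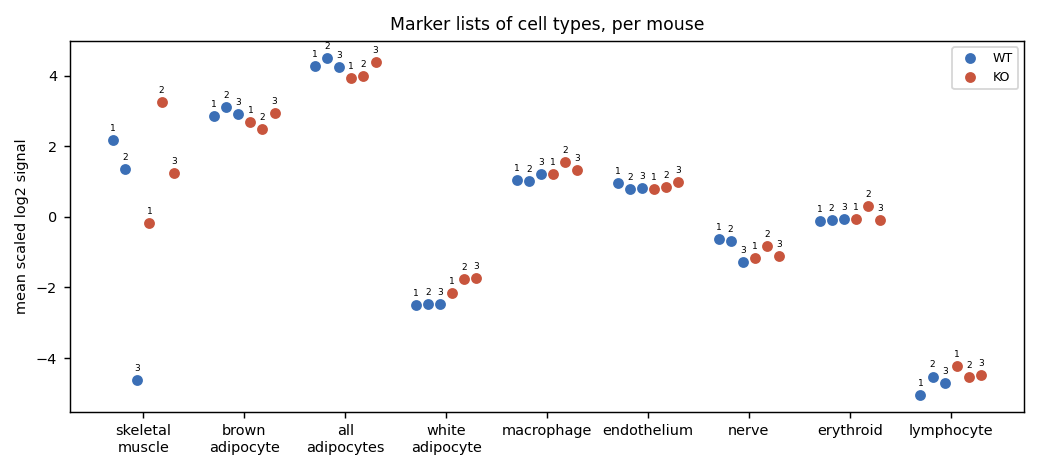
Mean scaled log2 signal (vertical axis) of each marker list in each mouse, WT in blue and KO in red, with the number of the mouse above the point. The skeletal muscle list runs from −4.63 in WT3 to 3.26 in KO2, while the brown adipocyte list stays between 2.49 and 3.12.

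Across the arrays, 55.8 to 66.5% of spots were well above background, 4.93 to 16.4% were marked, most on WT3 and KO1, and no spot was saturated. Over all genes the share of lower among called genes was 44.4%, and it was 55.4% under quantile normalization, 58.5% with normexp background correction, 56.9% in the values processed by the authors and 30.6% with no filter on dim probes, which also moved the median of all genes from −0.03 to 0.14. Each array was a different mouse, and 3 arrays per group limit the precision.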

How the data were processed

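Total RNA from BAT of the 6 mice, 3 per group, was labelled with Cy3 and hybridised to 6 arrays. The authors deposited, per the file headers, processed intensity values from Agilent Feature Extraction 11.5.1.1 (the submitters' processing notes name 10.7), background-subtracted and not scaled between arrays, and a table of log2 values with 27497 probes whose scaling is not given in the sources used here. Groups came from the labels.

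Each array's intensities were taken as log2 and the 75th percentile over its non-control spots was subtracted; marked spots were left out. Probes above background on at least 3 arrays with at least 2 unmarked values per group were tested in limma (version 3.58.1, R 4.3.3) by lmFit and eBayes, two-sided, with Benjamini-Hochberg adjustment over all 31238 tested probes. The brightest testable probe stood for a gene. The study's methods name SAM, which was not run, and a threshold of p under 0.05 without naming an adjustment. That threshold was applied here to unadjusted p. The methods' t-test is the Student's t-test that they name for the study's statistics in general. A confidence interval is at 95%. Probes were matched through the RefSeq accession.

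The members and the gene lists were chosen with earlier results of these data known, and counts over lists are descriptions. Named were all members with every probe, Mir22hg and, in each role, every tested pathway gene with an unadjusted p under 0.05 and at least 2 genes. The fit was tested on simulated data with independent noise and planted changes larger than the difference of any member. That test does not cover differences of the size reported here. Alternatives covered scaling, background correction, filters, marked spots, probes, tests, slide row, muscle level and leaving out each mouse. The alternatives for Slc2a4 and Pik3ca with marked spots kept, and those for marker lists, were chosen after seeing the data.

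Marker lists were compared between groups by two-sided exact permutation tests over the 6 mice. The lists not given in the report differed as follows: all adipocytes by −0.25, erythroid cells by 0.14, endothelium by 0.04, nerve by −0.17, and lymphocytes by 0.34 (exact permutation p from 0.2 to 0.6).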

Additional observations from a re-analysis of the deposited data

How the results depend on the processing

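No paired analysis was possible because the labels give the WT and KO mice no shared numbers. No alternative gave an adjusted call of a member or of a pathway gene. Members lower in KO, 1 as reported, came to 2 with marked spots kept, with trend and robust, in the methods' t-test and with 1 probe per gene in the fit, to 0 with slide row as a block, and to 1 to 2 with a mouse left out. Members higher in KO, 1 as reported, came to 0 in the methods' t-test, with the row as a block and with the muscle level as a covariate, and to 0 to 1 with a mouse left out. Pathway genes lower in KO, 11 as reported, came to 6 under quantile normalization, 4 without the filter on dim probes, 18 with marked spots kept, 0 with the row as a block, 5 with the muscle covariate and 2 to 9 with a mouse left out. Pathway genes higher in KO, 9 as reported, came to 4 under quantile normalization, 5 with normexp, 3 with the row as a block and 4 to 8 with a mouse left out. All genes lower, 1087 as reported, came to 698 without the filter, 266 with the row as a block and 588 to 1122 with a mouse left out, and all genes higher, 1359 as reported, to 860 with normexp, 743 with the row as a block and 970 to 1298 with a mouse left out. Fewer genes were testable with the row as a block (13092), and its estimate rests on WT3 against the KO mice. Signs turned for Insr under quantile normalization (−0.059), with normexp (−0.029), in the authors' values (−0.057) and without KO3 (−0.21 in a range up to 0.45 with a mouse left out), for Akt1 under quantile normalization (0.021), in the authors' values (0.026) and for the mean of its probes (0.11), and for Foxo1 without KO3 (−0.0064 in a range up to 0.24). For the mean of a gene's probes, signs also turned for Enpp1 (−0.12) and Rab4a (0.16). Igf2 was positive with the row as a block (0.11) and without WT2 (0.11 in a range down to −0.59), and Sort1 without WT1 (0.035 in a range down to −0.48); the reported probe was not testable in any of these and another probe stood for the gene. The skeletal muscle list turned without WT3 (−0.32), and with other mice left out its difference reached 3.09. The list of all adipocytes turned under quantile normalization (0.0069), with a range of −0.39 to −0.16 with a mouse left out. For the 22 named pathway genes, 266 of 415 values kept direction and call, 136 lost the call, 8 gained one and 5 turned. The cause of these changes was not tested. The method of the study, SAM, was not run.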
